A study of Mus musculus with 6 samples.

Results

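The tenascins and the matricellular proteins were examined here as a group of 10 genes, Tnc, Tnn, Tnr, Tnxb, Thbs1, Thbs2, Sparc, Postn, Spp1 and Fn1, taken by symbol from the 23420 genes counted in each library. All 10 have a row in the tables, and 7 had enough reads to enter the test of 13087 genes. The libraries came from lacrimal gland epithelium of E14.5 mouse embryos on a mixed background, captured by laser from frozen sections, with 3 Control and 3 Pea3 TKO samples. The Control samples are titled WT, and the paper gives the control of this RNA-seq as Le-Cre. In this transgene Cre is driven in lens and ocular surface ectoderm, including the lacrimal epithelium that grows from it. The paper's methods also name Le-Cre;Pea3+/-;Ermflox/+;Er81flox/+ mice among the controls of its experiments. Pea3 TKO embryos carried Le-cre together with Pea3-/-, Ermfl/fl and Er81fl/fl. Pea3 (Etv4) was therefore null in every cell, whereas Erm (Etv5) and Er81 (Etv1) were to be lost only where Le-Cre acts. By the paper's account, though not by the titles, both groups share the transgene. The sources do not say whether a library is 1 embryo or a pool, so the errors measure the spread between these samples.

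Matricellular proteins are secreted into the extracellular matrix and act on cells through surface receptors more than they build fibres. Tenascin-C, the product of Tnc, is made in embryos at sites where epithelia meet mesenchyme and again in wounds and tumours, and it weakens the adhesion of cells to fibronectin. Fibronectin (Fn1) is the adhesive glycoprotein that such cells grip through integrins, and thrombospondins, SPARC, periostin and osteopontin tune matrix assembly, proteases and growth factor access.

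Tnc was close to absent from Control buds and present in all 3 Pea3 TKO buds, whereas Sparc, the most abundant of the genes, and Fn1 had overlapping levels in both groups, and Postn, Spp1 and Thbs2 varied more between libraries of a group than between the groups. The genes were chosen by their counts in this same comparison, with Tnc taken for its difference, so the values of the 10 genes are a description without a test. By the edgeR quasi-likelihood test with Benjamini-Hochberg adjustment, 25.0% of all genes tested passed an adjusted p of 0.05, 13.6% higher and 11.3% lower in Pea3 TKO. Of the 7 genes tested from the group, 1 passed, Tnc. Tnc entered the test only through its reads in Pea3 TKO, and its count among the 7 is no result.

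The libraries held 14194775 to 17860140 counts, so that 3 counts correspond to 0.169 to 0.21 CPM. CPM here means counts scaled by the TMM-normalized library total. The targeted genes fell, Etv4 from 129 to 184 CPM in Control to 10.9 to 28.4 in Pea3 TKO, Etv5 from 961 to 1202 down to 88.2 to 177, and Etv1 from 28.7 to 33.9 down to 9.21 to 9.99. Epithelial identity was plain in every library, with Epcam between 1201 and 1500 CPM. Pea3 TKO replicate 3 stood apart from replicates 1 and 2. Its Y-linked genes summed to 139 CPM, against 136 to 175 in Control and 0.21 to 0.444 in the other Pea3 TKO libraries. Xist was at 106 and 32.5 CPM in Pea3 TKO replicates 1 and 2 and at most 0.436 in the other libraries. The labels do not give embryo sex. Fibroblast collagens and proteoglycans were lower in replicate 3 than in replicates 1 and 2. In Pea3 TKO replicate 3 Col1a1 was at 1.23, Dcn at 2.41 and Lum at 2.06 CPM. The other Pea3 TKO libraries held 54.5 to 70.8, 69.7 to 73.6 and 60.5 to 79.9. Control held 1.86 to 18.9, 0.249 to 4.42 and 0.338 to 8.39, so Pea3 TKO replicates 1 and 2 were above Control in these genes. In bulk samples, fewer cells of a type and less RNA per cell cannot be told apart.

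The stretches before the transcript starts of the tenascins that had reads are shown first, because these genes were silent or nearly so in Control. That of Spp1 is beside them as the window with the most matches to AGGAAG or CGGAAG among the group. Pea3 factors belong to the ETS family, whose members bind around a GGAA core. The sequences are from RefSeq on GRCm38.p6, 250 bases each, ending at the base before the start and written 5′ to 3′ on the gene's own strand. Capitals mark AGGAAG or CGGAAG on either strand, the AP-1 letters TGANTCA and the letters TATAAA on either strand, and no capitals overlap. The Tnc window is chr4:64047016-64047265 on the minus strand, before the outer of its RefSeq starts. The Tnr window is chr1:159523519-159523768, that of Tnxb is chr17:34670285-34670534, and that of Spp1, before its outer start, is chr5:104434861-104435110, all on the plus strand.
Tnc: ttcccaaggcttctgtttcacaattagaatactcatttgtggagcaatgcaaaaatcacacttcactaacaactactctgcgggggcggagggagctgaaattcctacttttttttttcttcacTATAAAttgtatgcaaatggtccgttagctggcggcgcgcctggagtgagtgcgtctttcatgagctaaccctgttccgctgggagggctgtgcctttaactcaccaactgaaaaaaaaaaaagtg
Tnr: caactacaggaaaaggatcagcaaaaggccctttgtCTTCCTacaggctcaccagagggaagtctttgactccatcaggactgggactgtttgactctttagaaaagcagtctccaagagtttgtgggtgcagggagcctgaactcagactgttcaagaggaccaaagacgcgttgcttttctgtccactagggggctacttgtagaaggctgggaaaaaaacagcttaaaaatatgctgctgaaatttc
Tnxb: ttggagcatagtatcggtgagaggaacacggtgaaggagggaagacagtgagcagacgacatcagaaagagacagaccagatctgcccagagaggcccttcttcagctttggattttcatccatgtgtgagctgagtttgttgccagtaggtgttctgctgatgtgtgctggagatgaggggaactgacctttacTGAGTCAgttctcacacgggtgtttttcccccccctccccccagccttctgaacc
Spp1: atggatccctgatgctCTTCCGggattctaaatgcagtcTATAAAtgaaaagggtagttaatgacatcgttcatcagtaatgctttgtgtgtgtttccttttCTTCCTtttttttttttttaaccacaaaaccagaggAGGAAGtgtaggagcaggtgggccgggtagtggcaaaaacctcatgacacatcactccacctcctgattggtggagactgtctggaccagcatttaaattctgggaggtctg
Neither AGGAAG nor CGGAAG occurs on either strand of this Tnc window, which holds 1 TATAAA at position -126 counted back from the start. The shorter core GGAA does occur in it on the other strand, written there as TTCC, and was not marked. The window before the inner Tnc start, which overlaps it and runs into the first exon, holds 1 AGGAAG at position -43. Tnr holds 1 match to AGGAAG at position -214, and Tnxb holds 1 TGANTCA at position -55. The Spp1 window holds 2 matches to AGGAAG, 1 to CGGAAG and 1 to TATAAA. Over the 32851 RefSeq windows of this length, 39.2% hold AGGAAG or CGGAAG, 6.75% hold TGANTCA and 12.4% hold TATAAA. These shares are for at least 1 match, and windows with as many matches as Spp1 were not counted. The matches describe the sequence only. RefSeq windows matched 8 of the 10 genes, and Thbs1 and Fn1 were not matched.

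Tnc lies on chromosome 4 from 63959785 to 64047015 (GRCm38, GENCODE M21) on the minus strand. Control replicates 1 to 3 held 0, 1 and 0 of its reads, and Pea3 TKO replicates 1 to 3 held 82, 233 and 313. On the normalized scale these Pea3 TKO libraries held 5.21, 16.3 and 18.4 CPM, a mean of 13.3 ± 7.08 (SD, n = 3) against 0.0208 ± 0.0360 in Control (n = 3). The groups did not overlap, as was true of 43.9% of all genes tested, 22.5% with Pea3 TKO higher. Even the lowest Pea3 TKO library, replicate 1, held 82 reads where all Control libraries together held 1. From the summed reads, the level in Pea3 TKO was 656 times that in Control, with an exact 95% interval from 117 to 25950 that covers counting error only. The fitted log2 fold change was 8.88 with a standard error of 0.89, a size that depends on the prior count because of the single Control read. The fitted value ran from 8.39 to 10.74 as each library was left out. It was 9.32 once summed Y-linked expression entered the model.

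The other tenascins were at the edge of detection. Tnn, a tenascin of bone and other connective tissue, had 0 reads in all 6 libraries, which allows up to 3 counts in each. Tnr, the tenascin of the nervous system, had 0 reads in Control, and its Pea3 TKO libraries held 2, 0 and 27. Almost all of its reads thus came from replicate 3, and without that library Tnr was under the 3-count floor. Tnxb, the tenascin of loose connective tissue, had 0 reads in Control and 0, 4 and 10 in Pea3 TKO. Against a floor of 3 counts over the Control group, the summed Pea3 TKO reads gave ratios of 10.1 for Tnr and 4.87 for Tnxb. These ratios leave out counting error in Pea3 TKO and are not lower bounds. From the observed counts, the exact 95% interval of Pea3 TKO over Control began at 7.70 for Tnr and 3.46 for Tnxb. It covers counting error only. For each gene at least 1 Pea3 TKO library was at 0 and overlapped Control. All tenascins together gave 0, 1 and 0 reads in Control against 84, 237 and 350 in Pea3 TKO, of which Tnc made up 97.6%, 98.3% and 89.4%. Exons of Tnc overlap those of 8030451A03Rik and exons of Tnr those of Gm38039, both on the opposite strand, and the same holds for Tnxb with Cyp21a2-ps, Thbs1 with Gm29233 and Fn1 with Apol7d, while Spp1 overlaps Gm42793 on its own strand. The strand setting of the counting is not given in the sources used here, so reads of such pairs cannot be told apart.

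**Figure D1:**
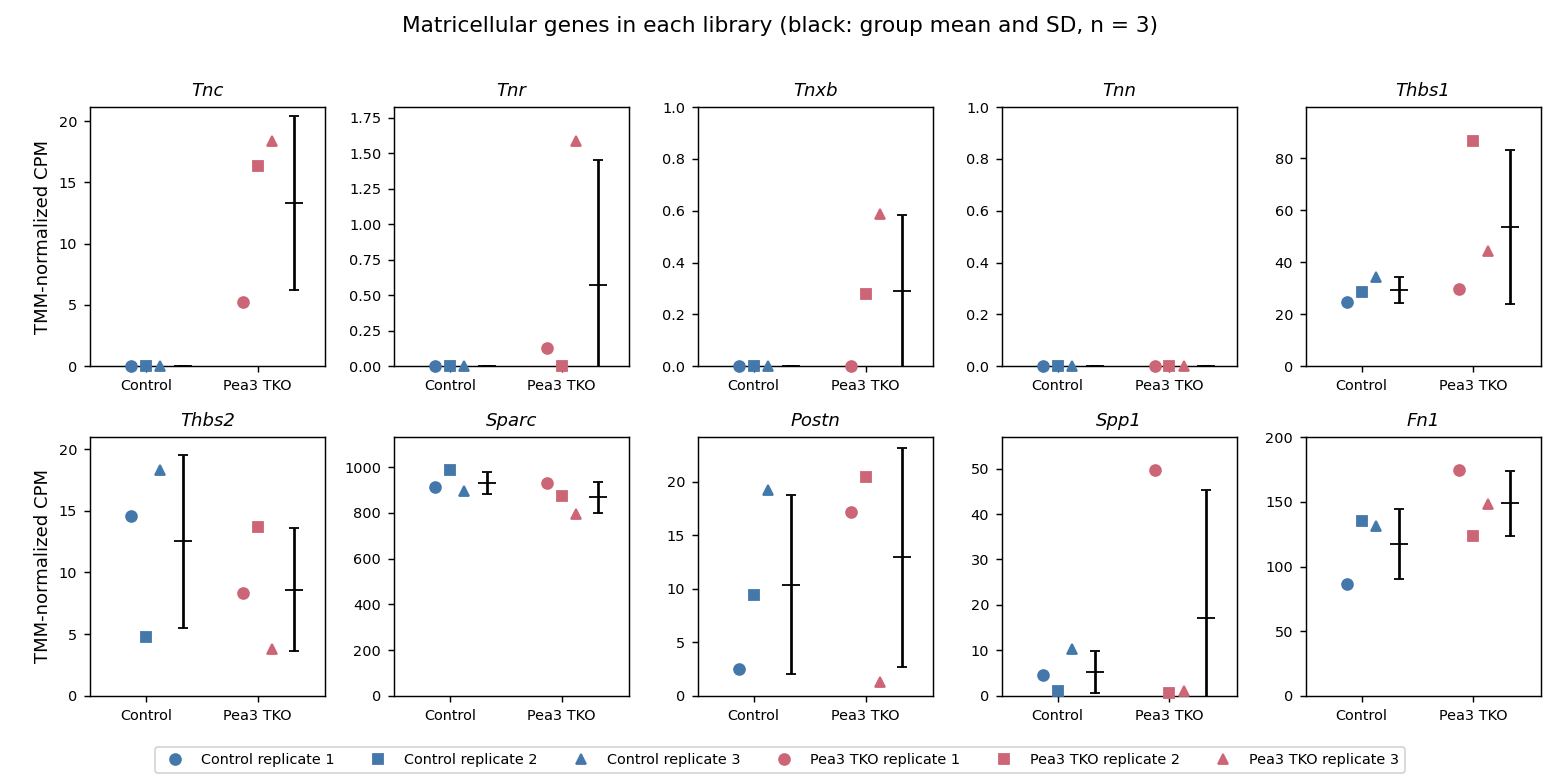
Level of each of the 10 genes in every library, in TMM-normalized CPM (vertical axis from 0, a scale per panel), for 3 Control and 3 Pea3 TKO samples, with the group mean and SD in black, clipped at 0. Only in the Tnc panel do all Pea3 TKO points, 5.21 to 18.4, lie above all Control points.

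Thbs1 (chromosome 2, 118111876 to 118127133) encodes thrombospondin-1, which activates latent TGF-beta and restrains the growth of vessels. Its Control libraries held 24.7, 28.8 and 34.5 CPM and its Pea3 TKO libraries 29.8, 86.8 and 44.2, in replicate order. Pea3 TKO replicates 2 and 3 lay above every Control library, while replicate 1 lay within the Control range. The log2 fold change was 0.87 with a standard error of 0.34, on means of 29.4 ± 4.91 and 53.6 ± 29.6 CPM (n = 3 each). This was the member whose call turned on 1 library. Without Pea3 TKO replicate 1 its value was 1.16, and Tnc and Thbs1 both passed, making 2 members called. Over all genes, leaving out 1 library gave 1948 to 3344 calls. With DESeq2 both members passed too, among 3968 of 14595 genes tested. The members were chosen from this comparison, so these counts are no result. Without Pea3 TKO replicate 2 the log2 fold change of Thbs1 was 0.34.

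Thbs2 (chromosome 17, 14665500 to 14694235), which encodes the related thrombospondin-2 of connective tissue, went the other way in its mean. Its levels were 14.6, 4.74 and 18.3 CPM in Control and 8.32, 13.7 and 3.76 in Pea3 TKO. The groups overlapped over most of their range, and Control replicate 2 lay inside the Pea3 TKO range. The log2 fold change of Thbs2 was -0.55 with a standard error of 0.54. Leaving out Control replicate 3 gave -0.176, and without Pea3 TKO replicate 2 it was -1.055.

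Sparc (chromosome 11, 55394500 to 55423183) encodes SPARC (osteonectin), a collagen chaperone and counter-adhesive protein that basement membranes hold. It was the most abundant gene of the group and the steadiest. Its levels were 914, 986 and 896 CPM in Control and 931, 875 and 796 in Pea3 TKO. The ranges overlapped, with Pea3 TKO replicate 3 the lowest of the 6. The coefficient of variation of Sparc was 5.11% in Control and 7.83% in Pea3 TKO, against a median of 15.1% and 16.3% over the genes tested. Its log2 fold change was -0.10 with a standard error of 0.11, and it stayed between -0.16 and -0.05 when each library was left out.

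Fn1 (chromosome 1, 71585520 to 71653200) encodes fibronectin, to which tenascin-C binds. Its levels were 86.1, 134.9 and 131.5 CPM in Control and 174, 123 and 148 in Pea3 TKO. Pea3 TKO replicates 1 and 3 lay above all Control libraries and replicate 2 lay below Control replicates 2 and 3. The log2 fold change of Fn1 was 0.34 with a standard error of 0.19. Without Control replicate 1, the lowest library, it was 0.16. Counts are per gene and cannot show which splice forms of Fn1 or Tnc were present.

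Postn (chromosome 3, 54361109 to 54391037) encodes periostin, a product of fibroblasts and of mesenchyme under epithelia. Its Control libraries held 2.54, 9.41 and 19.2 CPM, and its Pea3 TKO libraries held 17.1, 20.4 and 1.29. Both groups held a library below 3 CPM and one above 19. Its log2 fold change was 0.32 with a standard error of 0.85, and it changed sign without Control replicate 1, at -0.15, and without Pea3 TKO replicate 2, at -0.18. With the Y-linked covariate it was -3.08. Within each group the lowest and highest libraries differed 7.56-fold in Control and 15.8-fold in Pea3 TKO.

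The libraries low in Postn were also low in fibroblast genes. Summed over the 22 markers listed for mesenchyme, the level was 529.8 to 585.2 CPM in Control and 1013, 1186 and 536.3 in Pea3 TKO. Col5a1, Foxc1, Foxc2 and Vim were above 50 CPM in every Control library. The remaining 18 markers summed to 31.0, 37.6 and 127.8 CPM in Control and 428.8, 606.6 and 28.6 in Pea3 TKO. Postn was lowest in Pea3 TKO replicate 3 and Control replicate 1, which also had the lowest of these sums. Of 18 markers tested, 3 passed as higher (Dcn, Lum and Col5a1) and 1 as lower (Foxc2). Among all genes tested, 13.6% passed as higher and 11.3% as lower. Without Pea3 TKO replicate 3, 10 markers passed, without Pea3 TKO replicate 1 or 2, 1 passed, and without Control replicate 1 or 2, 2 passed. Tcf21 was at 0 in all 6 libraries and Fgf10 at 0 in the Pea3 TKO libraries. The part of these cells in the Postn levels was not tested.

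Tnc and the fibroblast genes were ordered differently among the Pea3 TKO libraries. Tnc was highest, at 18.4 CPM, in Pea3 TKO replicate 3, where the 18 markers summed to 28.6 CPM, less than in any Control library. In Pea3 TKO replicate 1, where they summed to 428.8, Tnc was lowest of its group at 5.21. This same replicate 3 matched the Control libraries in Y-linked expression. Without it, the log2 fold change of Tnc was 8.57. Over all 6 libraries, which include the group difference, Pearson's r of log2 CPM with the log2 sum of the 22 mesenchyme markers was 0.595 for Tnc and 0.669 for Postn, given as a description. The part of these cells in the Tnc level was not tested.

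Spp1 (chromosome 5, 104435118 to 104441050) encodes osteopontin, a phosphorylated glycoprotein of bone, macrophages and some epithelia. Its levels were 4.68, 0.997 and 10.2 CPM in Control and 49.6, 0.629 and 1.12 in Pea3 TKO. A single library, Pea3 TKO replicate 1, carried the higher mean, and the other Pea3 TKO libraries lay below Control replicates 1 and 3. The log2 fold change of Spp1 was 1.69 with a standard error of 1.32, and without Pea3 TKO replicate 1 it was -2.58. With the Y-linked covariate it was -2.18. The coefficient of variation of Spp1 was 87.6% in Control and 164% in Pea3 TKO, where the 90th percentile over the genes tested was 57.5% and 50.8%.

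Macrophage genes were uneven over the same libraries. Csf1r, the receptor that macrophages need to survive, had 10.99, 0 and 7.41 CPM in Control and 4.13, 0.699 and 0 in Pea3 TKO. The complement gene C1qb had 6.37, 0 and 2.08 CPM in Control and 4.001, 0.979 and 0 in Pea3 TKO. Both genes were higher in the libraries with more Spp1, Control replicates 1 and 3 and Pea3 TKO replicate 1, than in the others, although Spp1 was highest in Pea3 TKO replicate 1 and Csf1r in Control replicate 1. The 9 blood markers found in the tables summed to 3.80 to 37.4 CPM in Control and 8.81 to 25.8 in Pea3 TKO, with Hba-a1 at 0 throughout. Alas2, the highest of them by mean, had 12.8, 3.61 and 2.86 CPM in Control and 2.29, 4.97 and 16.4 in Pea3 TKO. It was thus lowest in Pea3 TKO replicate 1, where Spp1 was highest. Of 6 blood markers tested by edgeR, 0 passed, 0 had an unadjusted p under 0.05, and 0 passed in DESeq2. Their part in the Spp1 levels was not tested.

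**Figure D2:**
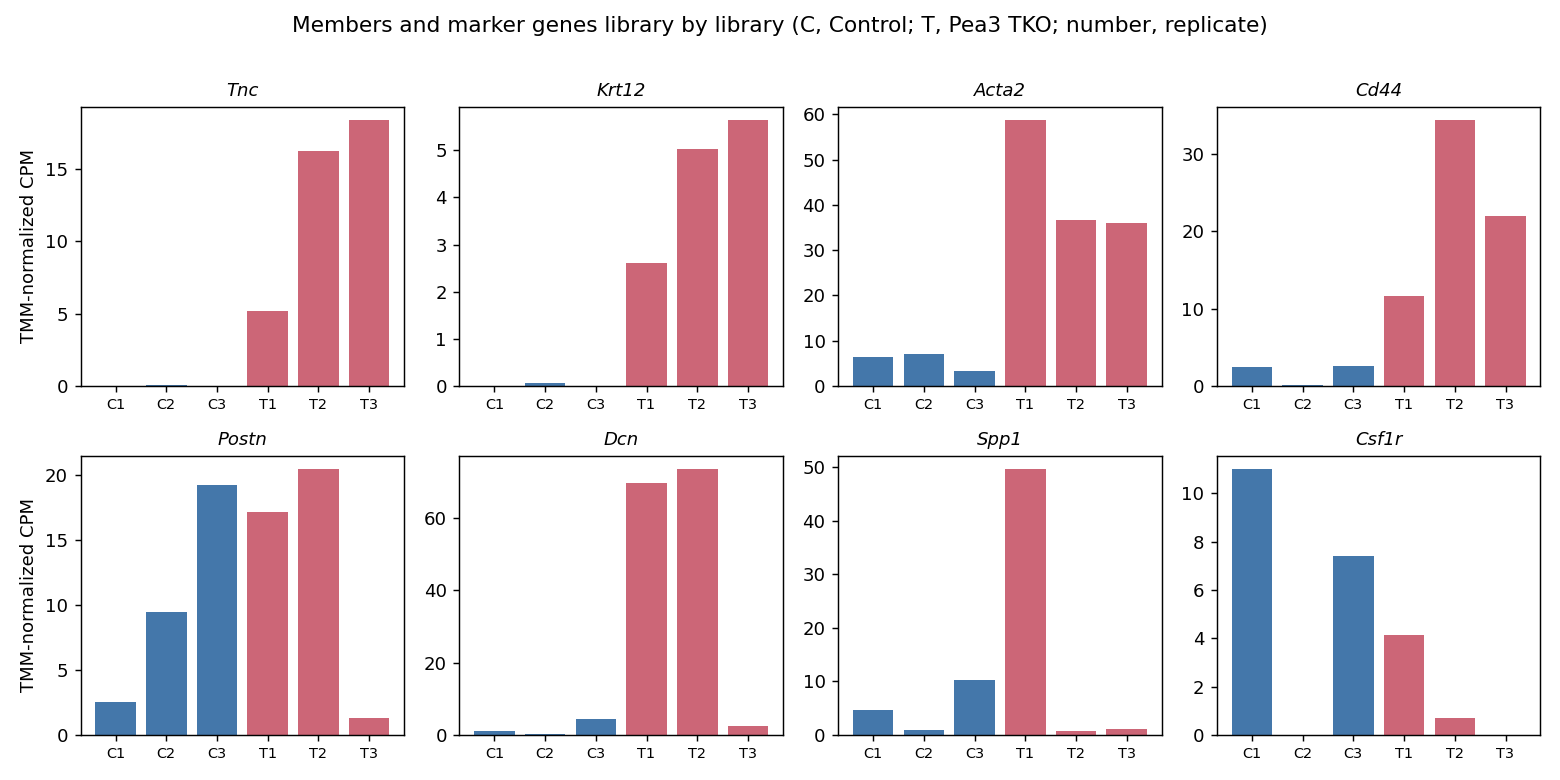
CPM of Tnc, Postn, Spp1 and 5 other genes in each library (C, Control; T, Pea3 TKO; bars start at 0). Tnc, Krt12, Acta2 and Cd44 were low in all Control and higher in all Pea3 TKO libraries, whereas Postn and Dcn were low in Pea3 TKO replicate 3, at 1.29 and 2.41, and Spp1 was high in Pea3 TKO replicate 1 alone.

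Levels of different genes were compared per kilobase of merged exons. In Control, Sparc stood at 246 ± 12.6 CPM per kb and Fn1 at 10.1 ± 2.33 (SD, n = 3). Thbs1 followed at 4.83 ± 0.81, Spp1 at 3.21 ± 2.81, Thbs2 at 1.79 ± 0.9996, Postn at 1.19 ± 0.96 and Tnc at 0.00266 ± 0.0046. The ranges of Sparc, Fn1 and Thbs1 did not overlap each other in Control. Those of Thbs1 and Spp1, of Spp1 and Thbs2, and of Thbs2 and Postn did overlap, and Tnc lay below all others. In Pea3 TKO, Tnc reached 1.71 ± 0.91 CPM per kb, a level within the spread of Postn at 1.49 ± 1.18 and Thbs2 at 1.23 ± 0.71. Sparc stayed first at 229 ± 17.9 and Fn1 had 12.7 ± 2.18.

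**Figure D3:**
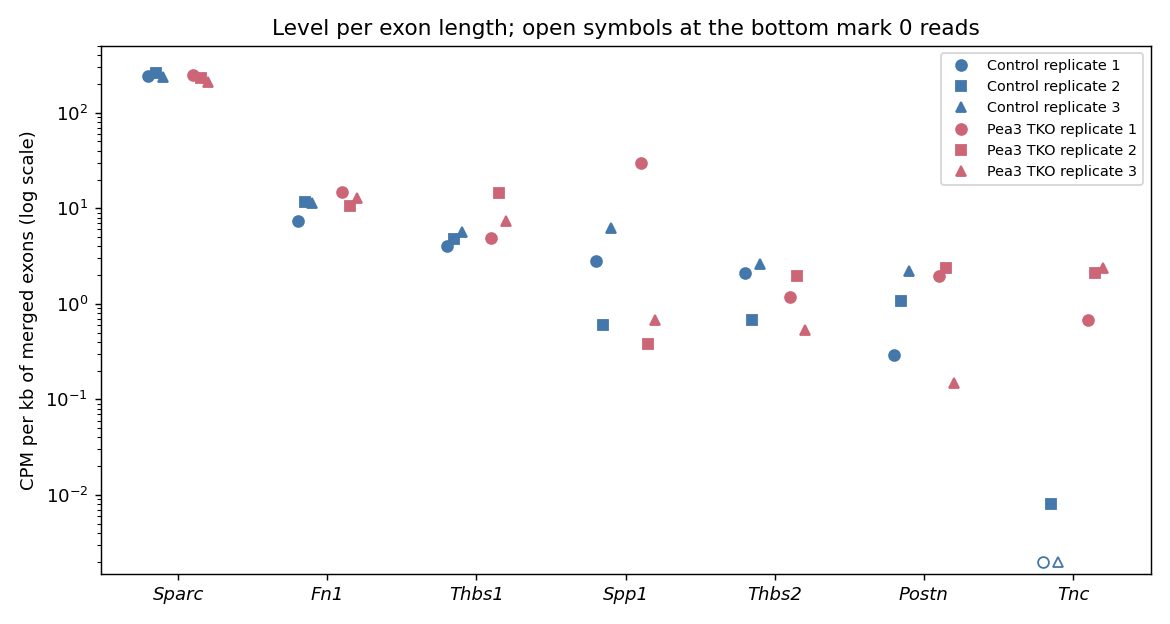
CPM per kb of merged exons on a log scale for the 7 genes tested, by library, ordered by the Control mean, with 0 reads drawn as open symbols at the bottom. Sparc sits near 246 in Control, and Tnc moves from the bottom of the order to the level of Thbs2 and Postn in Pea3 TKO.

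By Pearson's r of log2 CPM over the 6 libraries, the genes most like Tnc were Tmem200a (0.9997), Krt12 (0.9989) and Dcaf12 (0.9989), and 298 tested genes had an r above 0.95. With so few libraries, a group difference that 2 genes share gives a high r, and these values are a description. Krt12, the keratin of corneal epithelium, had 0, 0.062 and 0 CPM in Control and 2.60, 5.04 and 5.64 in Pea3 TKO, the same order of libraries as Tnc. Tmem200a, a membrane protein gene, had 0, 0.062 and 0 CPM in Control and 3.24, 10.4 and 11.9 in Pea3 TKO. Both genes, like Tnc, had 1 read in Control replicate 2 and 0 in the other Control libraries.

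Markers of other cell types were compared between the groups in the same way. Of the 12 conjunctiva and epidermis markers, 11 passed as higher, against 13.6% of all genes tested. Their summed level was 1090 to 2301 CPM in Control and 8671, 7700 and 6341 in Pea3 TKO replicates 1 to 3. Tnc rose over these replicates while this sum fell, but the markers differed. Krt15, the largest part of the sum, fell from 4357 to 3462 and 2212 CPM, and Krt5, Krt7 and Krt1 fell too. Krt14, at 433, 651 and 746 CPM, and Sfn, at 472, 476 and 479, rose in the order of Tnc. The remaining markers of this list did neither. Control replicate 1 held the highest Control sum, 2301, and 0 reads of Tnc. Of the 10 muscle markers, 2 were tested and both passed as higher. Acta2, smooth muscle actin, rose from 5.51 ± 2.04 to 43.7 ± 12.9 CPM, and Tagln rose from 3.48 ± 0.81 to 21.7 ± 7.92 (n = 3 each, edgeR adjusted p of 3.9e-04 and 1.0e-03). The other 8 muscle markers were below 3 CPM in every library and were not tested. Among them Actc1 was lower in each Pea3 TKO library, at 0.338, 2.617 and 0.975 CPM in Control and 0.064, 0.28 and 0 in Pea3 TKO, Myh11 was at 0 in Control and at 0.127, 2.447 and 1.527 in Pea3 TKO, and Des, Cnn1 and Tnnt1 overlapped between the groups. The summed muscle list was at 7.87 to 14.1 CPM in Control and 53.6 to 85.4 in Pea3 TKO, with Myf5 at 0 throughout and Myog and Myod1 at 0 in Control. The summed endothelial list was at 27.8 to 35.1 CPM in Control and 19.2 to 31.7 in Pea3 TKO. Egfl7 held the largest share, at 24.3 to 31.1 CPM in Control and 16.7 to 23.9 in Pea3 TKO, and Kdr was at 0 in Control and at 1.40, 2.38 and 0 in Pea3 TKO, with Tie1, Emcn and Robo4 at 0 throughout. Of 2 endothelial markers tested by edgeR 0 passed, 1 had an unadjusted p under 0.05, and 1 passed in DESeq2. The nerve and melanocyte list summed to 296 to 380 CPM in Control and 162 to 193 in Pea3 TKO, and 1 of 6 tested passed, Erbb3, as lower. Their part in the Tnc level was not tested either.

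Receptors that bind the matricellular proteins were then listed, to ask which of them the same buds held. Of 25 receptor genes, 21 were tested, and 6 passed as higher and 4 as lower in Pea3 TKO. Over all genes tested, 13.6% passed as higher and 11.3% as lower. The median log2 fold change of the receptors was 0.53, against 0.009 over all genes tested. Itga9, Itga8 and Itga4, integrin alpha subunits that pair with Itgb1, had the lowest log2 fold changes of the 21, whereas Itga5 and Itga3, which pair with Itgb1 too, were at -0.23 and -0.04 without a call. Itga9, a receptor chain for Tnc and Spp1, had 319, 343 and 465 CPM in Control and 42.0, 50.1 and 60.6 in Pea3 TKO (edgeR adjusted p = 2.0e-05; log2 fold change -2.88 with standard error 0.19). Itga8, which binds Tnc, Fn1 and Spp1, had 21.7, 21.5 and 30.8 CPM in Control and 2.41, 2.87 and 0.529 in Pea3 TKO, the lowest value of the 6 being in replicate 3 (adjusted p = 1.0e-03, log2 fold change -3.68 with standard error 0.502). Itga4, a chain for Fn1 and Spp1, had 44.4, 62.6 and 58.8 CPM in Control and 6.41, 1.33 and 7.22 in Pea3 TKO (adjusted p = 9.8e-04, log2 fold change -3.46 with standard error 0.47). Their common partner Itgb1 fell less, from 661 ± 49.7 to 473 ± 37.9 CPM (log2 fold change -0.48, standard error 0.12, adjusted p = 0.015), and without Control replicate 3 its adjusted p was 0.072.

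Receptors with higher levels in Pea3 TKO were of other kinds. Itgb6, which with Itgav forms a receptor for Tnc, Fn1 and latent TGF-beta, had 4.40, 3.49 and 2.67 CPM in Control and 24.6, 23.2 and 19.3 in Pea3 TKO (log2 fold change 2.66, standard error 0.28, adjusted p = 3.2e-04). Cd44, a hyaluronan receptor that also binds Spp1, had 2.42, 0.062 and 2.60 CPM in Control and 11.6, 34.4 and 22.0 in Pea3 TKO (log2 fold change 3.73, standard error 0.78, adjusted p = 0.0080). The thrombospondin receptor Cd47 rose from 29.0 ± 8.27 to 79.0 ± 14.7 CPM, Egfr from 46.8 ± 5.11 to 118.5 ± 22.1 and Sdc1 from 351 ± 49.6 to 617 ± 44.6 (n = 3 each, edgeR adjusted p of at most 0.0022). The Fn1 receptor chain Itga5 had 49.7 ± 9.50 against 42.4 ± 3.94 CPM, Itgav 78.1 ± 25.5 against 82.9 ± 17.4 and Itgb5 327 ± 12.4 against 331 ± 60.01, and none of these passed. Itgb3 was at 1.35 ± 1.53 and 0.90 ± 0.57 CPM. The heparan sulphate receptor Sdc4 had 191 ± 50.5 and 227 ± 55.9 CPM, also without a call. Ptprz1, a neural receptor of tenascins, had reads in 1 Control library only and 0 in Pea3 TKO. With the Y-linked covariate, 5 receptors passed, Itgb6 and Egfr as higher and Itga4, Itga8 and Itga9 as lower.

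**Figure D4:**
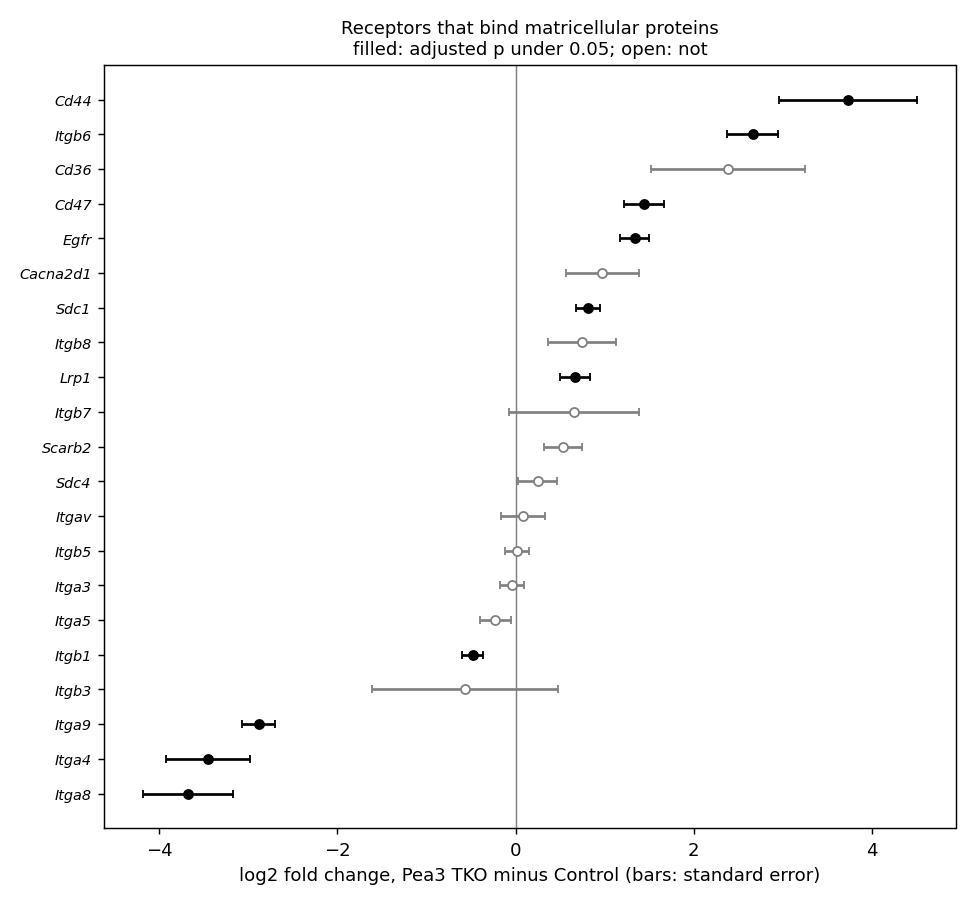
Log2 fold change (Pea3 TKO minus Control) with its standard error for the 21 receptor genes tested, filled where the edgeR adjusted p is under 0.05. Itga8, Itga4 and Itga9 stand at the lower end, from -3.68 to -2.88, and Cd44 and Itgb6 at the upper end, at 3.73 and 2.66.

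Other matricellular genes also separated the groups, as did 43.9% of all genes tested. Of 42 other genes of these kinds, 31 were tested, and 8 passed as higher and 4 as lower, with a median log2 fold change of 0.47. The shares over all genes tested were 13.6% higher and 11.3% lower. The basement membrane linker Nid1 rose from 30.2 ± 6.48 to 84.0 ± 14.6 CPM, the fibulin Efemp1 from 13.1 ± 9.43 to 120.4 ± 49.96, the hemicentin Hmcn1 from 0.286 ± 0.10 to 4.91 ± 2.37, and Tgfbi, an RGD-bearing integrin ligand, from 2.22 ± 1.94 to 21.1 ± 4.34 (n = 3 each, edgeR adjusted p of at most 0.0037). The SPARC relative Smoc2 fell from 148 ± 5.35 to 32.4 ± 17.3 CPM, Ctgf (now Ccn2) from 35.8 ± 6.87 to 9.70 ± 3.11, and the Itga8 ligand Npnt from 119 ± 24.0 to 45.3 ± 19.2 (adjusted p of at most 0.0093). Nid2 fell from 10.7 ± 6.05 to 4.21 ± 0.51 CPM at an adjusted p of 0.045, a call lost when any library other than Control replicate 3 was left out, the value then running from -0.771 to -1.54. The thrombospondins Thbs3 and Thbs4, relatives of Thbs1, were at 2.92 ± 0.70 against 5.82 ± 1.58 CPM and 1.19 ± 0.30 against 0.127 ± 0.22, and neither passed.

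**Figure D5:**
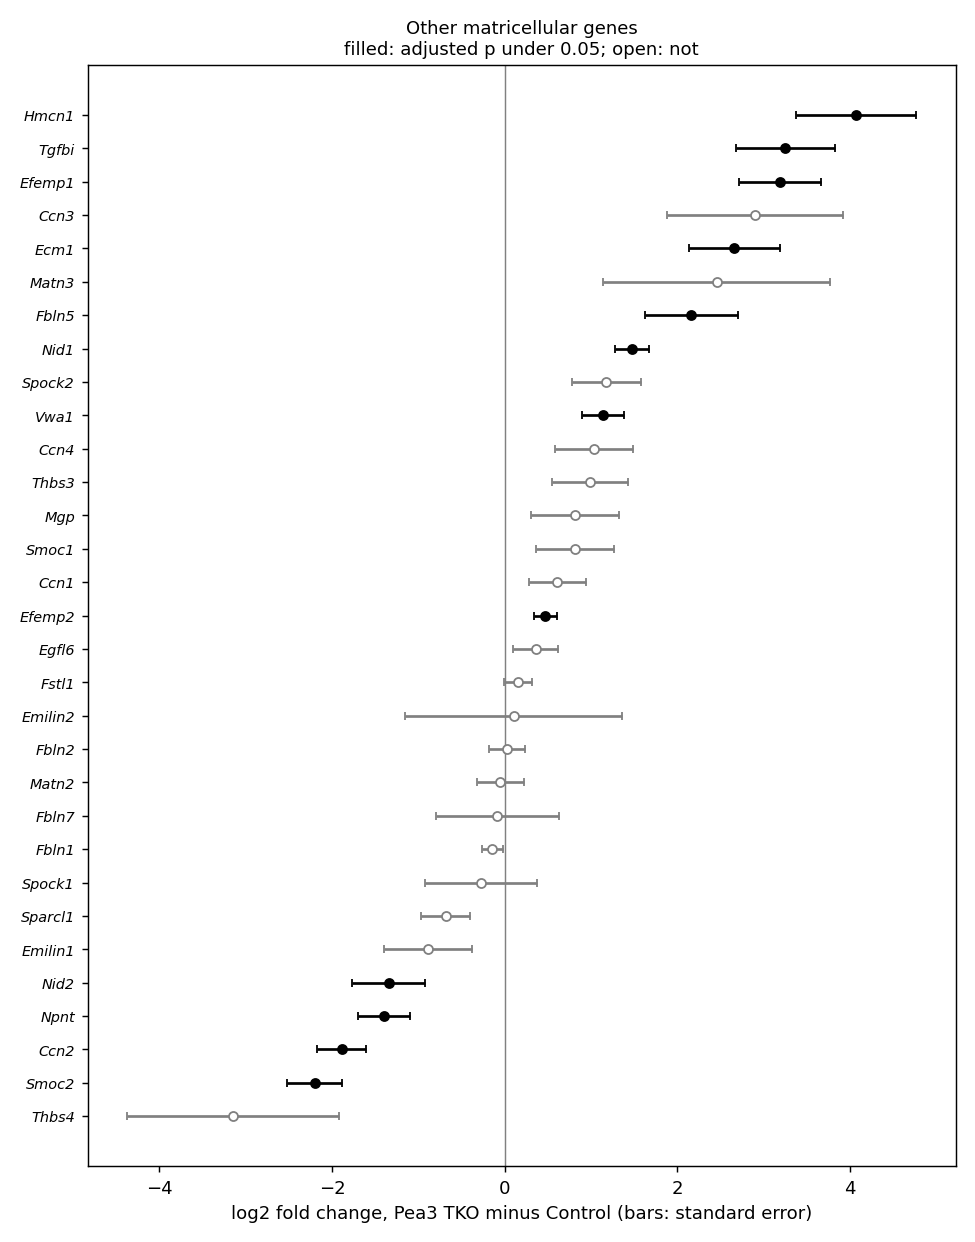
Log2 fold change (Pea3 TKO minus Control) with its standard error for the 31 other matricellular genes tested, filled where the edgeR adjusted p is under 0.05. Of these, 12 are filled, from Thbs4 (open) at the bottom through Smoc2 and Ctgf (plotted as Ccn2) to Hmcn1 at the top.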

How the data were processed

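RNA-seq counts of laser-captured E14.5 lacrimal gland epithelium were taken as the authors deposited them, as raw read counts per gene symbol, 1 table per sample and without normalization. The submitters' processing notes name bcl2fastq 2.17, STAR 2.5.2b, featureCounts 1.5.0-p3, DESeq and the build mm10. Counting settings and the annotation are not given in the sources used here. The labels name an RNA amplification kit and a poly-A library kit. Totals were 14194775 to 17860140 counts.

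Genes were kept by filterByExpr of edgeR 4.0.16 (R 4.3.3), normalized by TMM, and tested over all 13087 genes kept with the quasi-likelihood test, condition as the only term and a threshold of 0.05 on the Benjamini-Hochberg adjusted p. Each standard error was derived from the fold change and its F statistic (their size over root F). CPM uses TMM-scaled library totals, and log2 CPM for r used a prior count of 2. Lengths and positions are from GENCODE M21 (GRCm38), matched by symbol for 94.3% of tested genes.

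The members and lists were chosen with earlier results of these data known. Named genes were the members, up to 4 higher and 4 lower genes with the smallest p in each list, a fixed set of receptors, the targeted genes, the 3 genes most like Tnc, and cell type genes at 0 or highest; Csf1r, C1qb, Col1a1, Thbs3, Thbs4, Vcan, the other lecticans, Hapln2, Hapln4, Itga3, Kdr and the untested muscle markers were added after their values were seen. Alternatives were RLE factors, library totals, DESeq2 1.42.0, other filters, the replicate number as a block, a Y-linked covariate and each sample left out. The replicate numbers are shared by both groups in the labels.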

Additional observations from a re-analysis of the deposited data

How the results depend on the processing

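Without a replicate block or other term, 3268 genes passed; the replicate block gave 3191, and 1 member, Tnc, passed under both. Deviations from group means correlated across genes at 0.13, -0.042 and -0.001 for replicate numbers 1 to 3, so the numbers are not shown to pair the samples. With the block 1 mesenchyme marker passed in place of 4, and the log2 fold change of Spp1 was -0.061.

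With the Y-linked covariate, which separates Pea3 TKO replicates 1 and 2 from the other 4 libraries, 787 genes, 5 receptors, 3 matrix partners, 13 other cell type markers and 0 mesenchyme markers passed (8 of the latter had an unadjusted p under 0.05 in the edgeR test without it, and 5 passed in DESeq2). It reversed Postn (-3.08), Spp1 (-2.18), Itgav (-0.015), Itgb5 (-0.175) and Lum (-0.805). DESeq2 called 2 of 8 members tested, and 3968 of all 14595 genes tested. Since the covariate was alike in Control and Pea3 TKO replicate 3, the condition effect with it rested mainly on that library. The cause of these shifts was not tested.

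Leaving out each library in turn gave 1948 to 3344 genes, 1 to 2 members, 8 to 11 receptors, 10 to 13 other matricellular genes, 5 to 9 matrix partners, 1 to 10 mesenchyme markers and 19 to 24 other cell type markers. Without Control replicate 1, Postn was at -0.148 and Itgav at -0.16. Without Control replicate 2, Itgb5 was at -0.017. Without Control replicate 3, Itgb3 was at 0.866, Postn at 1.113, Spp1 at 2.577 and Itgav at 0.278. Without Pea3 TKO replicate 1, Spp1 was at -2.58 and Itgb3 at -1.181. Without Pea3 TKO replicate 2, Postn was at -0.182, Itgav at -0.088 and Itgb5 at -0.141, and without Pea3 TKO replicate 3, Itgb5 was at 0.095.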

Other observations

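The matrix partners and modifying enzymes of these proteins were split between the directions. Of 26 listed, 18 were tested, and 3 passed as higher and 5 as lower in Pea3 TKO, with a median log2 fold change of 0.27. All genes tested gave 13.6% higher and 11.3% lower. Tgm1, the transglutaminase of cornified epithelia, rose from 7.98 ± 8.09 to 73.7 ± 14.9 CPM (n = 3 each, edgeR adjusted p = 0.0048). Adamts1 and Loxl2 were also higher, with log2 fold changes of 0.84 and 1.80, and Mmp2 and Loxl3 lower, at -1.50 and -1.70 (edgeR adjusted p of at most 0.020). The call of Loxl2 was lost without Control replicate 2 (edgeR adjusted p = 0.0573) or Pea3 TKO replicate 1 (0.0928), and that of Loxl3 without Control replicate 3 (0.054). Fbn1, the fibrillin on which elastic microfibrils are built, fell from 125.6 ± 49.3 to 41.3 ± 2.57 CPM, and Ltbp1, which tethers latent TGF-beta to fibronectin and fibrillin, fell from 416 ± 90.7 to 258 ± 27.5 (edgeR adjusted p of 0.0023 and 0.014). Without Control replicate 3 the call of Ltbp1 was lost (0.0521), and the Y-linked covariate removed the calls of Adamts1, Loxl2, Loxl3 and Ltbp1 (edgeR adjusted p of 0.0559, 0.224, 0.107 and 0.0665). Vcan, a lectican that tenascins bind, was abundant in both groups, at 401 ± 86.6 and 484 ± 83.6 CPM, and did not pass. Acan, Ncan, Bcan, Hapln2 and Hapln4 had at most 0.70 CPM in any library.

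Of the 10 epithelium and bud markers listed, 7 passed as higher and 2 as lower, against 13.6% and 11.3% of all genes tested. The 2 lower were Sox9 and Sox10. The call of Sox9 was lost without Control replicate 2 or Pea3 TKO replicate 2 and with the Y-linked covariate. The 10 markers summed to 3643 to 4505 CPM in Control and 5649 to 6582 in Pea3 TKO.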
